A study of Homo sapiens with 8 samples.

Results

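To find transcripts that set apart cells which keep SDHA but lack SDHB, the 3 SDHB KO samples of MDA-MB-231 (MDA231) cells were compared with the pool of the 5 other samples of the series, 2 parental and 3 SDHB KO SDHA low. All 8 samples were RNA from untreated cells harvested in full medium before confluence. Of 58051 genes in the count tables, the 7550 with a mean normalized count above 5 over the 8 samples were tested. The gene nearest above this minimum was SRD5A1, at 5.0003, and the nearest below was DNAJC21, at 4.9995. In SDHB KO cells 98 genes were higher and 34 lower than in the 5 others. TNFRSF21, PFDN5, PRMT1 and IGFBP4 were among the first set, and SRF and the citrate carrier gene SLC25A1 among the second.

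Complex II (CII, succinate dehydrogenase) oxidizes succinate to fumarate in the tricarboxylic acid (TCA) cycle and passes the electrons on to ubiquinone in the inner mitochondrial membrane. SDHA is its flavoprotein and holds the succinate site, SDHB carries iron-sulfur clusters, and SDHC and SDHD anchor the complex in the membrane. When SDHB is missing, the whole complex does not form, and SDHA can persist outside it together with assembly factors, in the form that the study calls CIIlow.

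MDA231 is a triple-negative human breast cancer line. Parental cells carried no modification. SDHB KO cells were made with a TALEN construct against exon 1 of SDHB and selected with hygromycin. SDHB KO SDHA low cells, also called knockdown cells here, are SDHB KO cells with an additional knockdown of SDHA by a short hairpin RNA plasmid and selection with puromycin, so both SDHB KO groups share the SDHB knockout and the last group also carries a vector and a selection. The labels list no SDHB KO samples with an empty vector, so the knockdown and the vector cannot be told apart here, and whether the lines are single clones is not given in the sources used here. Replicates are labelled as biological.

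Between 773042 and 1427141 reads per sample were counted on genes, and the deepest library was SDHB KO SDHA low replicate 2. A count of 3 corresponded to 2.10 to 3.88 CPM (counts per 1000000 reads counted on genes), and genes with a mean normalized count of 5 or less were not tested. The CPM of single genes given in the comparisons were also normalized by the trimmed mean of M values, and those of the marker genes here were not. All 12 genes listed as markers of MDA231 had reads in at least 1 sample, with summed levels of 7100 to 7389 CPM in parental, 5846 to 6626 in SDHB KO and 6188 to 7260 in SDHB KO SDHA low samples. ANXA1 (0 to 5.96 CPM) and ZEB1 (0 to 11.9 CPM) had no read in at least 1 sample. Of 14 luminal and epithelial markers, ESR1, PGR and ELF3 had no read in any sample and KRT18 had 966 to 1638 CPM. KRT8 had 144 to 252 CPM, KRT19 86.3 to 144 and XBP1 137 to 253. The summed level of these 14 genes was 1849 to 2093 CPM in parental, 1828 to 2113 in SDHB KO and 1513 to 1687 in SDHB KO SDHA low samples. Of 14 stromal and blood cell markers, 11 had no read in any sample, PTPRC among them. Their summed level was 2.08 to 6.32 CPM in SDHB KO samples, 2.59 to 4.77 in parental and 2.45 to 4.58 in SDHB KO SDHA low samples.

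The 2 targeted genes were examined first. SDHB had 4 and 3 counts in the parental samples, 0, 3 and 1 in SDHB KO samples and 0, 2 and 1 in SDHB KO SDHA low samples. With at most 4 counts anywhere, the RNA could not check the knockout label. SDHA (ENSG00000073578, chr5:218303-257082 of GRCh38) was measured at 73.2 and 90.5 CPM in parental samples, at 146, 133 and 149 in SDHB KO samples and at 8.35, 12.5 and 17.6 in SDHB KO SDHA low samples. The 3 groups did not overlap, and the knockdown samples were the lowest. SDHA therefore met the test of the 3-against-5 comparison (log2 fold change 1.86 ± 0.46 (SE), edgeR adjusted p = 0.06), a difference that the knockdown in 3 of the 5 others partly fixes. With the groups apart, SDHA in SDHB KO cells was above parental cells by 0.80 ± 0.26 (SE, edgeR adjusted p = 0.103), which did not pass, and above SDHB KO SDHA low cells by 3.46 ± 0.28 (SE, edgeR adjusted p = 1.2e-07). In the comparison of 3 against 5, SDHA no longer passed with DESeq2, with the replicate number as a block, when both other groups had to be passed, and without any 1 of SDHB KO replicates 1, 2 and 3 or SDHB KO SDHA low replicate 3. Its log2 fold change lay between 1.61 and 2.40 over 18 alternatives.

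Among the other genes of complex II, SDHC had 20 to 54 counts, and its log2 fold change of -0.39 ± 0.32 did not pass (edgeR adjusted p = 0.641). SDHD had at most 3 counts and was not tested. The assembly factor genes SDHAF1, SDHAF2 and SDHAF4 had log2 fold changes of -0.64, 0.18 and -1.09, none past the threshold, and SDHAF3 had no read. SDHAF1 and SDHAF4 had only 2 to 16 counts. With the groups apart, SDHAF4 in SDHB KO cells was at -0.05 against parental and -1.49 against SDHB KO SDHA low cells, and neither passed. SDHA reads can be shared with the pseudogenes SDHAP1, SDHAP2 and SDHAP3, whose counts did not exceed 3 in any sample.

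Over all 7550 tested genes, 132 passed an adjusted p of 0.1 in edgeR's quasi-likelihood test (1.75%), 98 higher (1.3%) and 34 lower (0.45%) in SDHB KO cells, and 1009 had an unadjusted p below 0.05. The median log2 fold change was 1.06 among the higher genes, 2.08-fold, and -1.01 among the lower genes, 2.01-fold, against -0.02 over all tested genes. In RNA of a whole culture, fewer cells that express a gene and less RNA per cell cannot be told apart. The smallest absolute log2 fold change that passed was 0.68, and the extremes were -2.83 for SMC4, a condensin subunit gene, and 2.20 for TRBC2, a constant segment gene of the T cell receptor beta chain. In 119 of the 132 genes the 3 SDHB KO samples lay all on one side of the 5 others, 85 above and 34 below. Over all tested genes such a separation was seen in 9.79%, with 5.06% above and 4.73% below. The 132 genes were chosen by a test on the same values, which largely fixes their separation, so it is no further support. Among the 98 higher genes, SDHB KO replicate 2 was the lowest of the 3 SDHB KO samples in 62, replicate 1 in 20 and replicate 3 in 16. Among the 34 lower genes, replicate 2 was the highest of the 3 in 21.

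The number of genes that passed depended on single libraries. It was 13 without SDHB KO replicate 1, 27 without SDHB KO replicate 3 and 37 without SDHB KO SDHA low replicate 3. It was 85 without parental replicate 2, 88 without parental replicate 1 and 98 without SDHB KO replicate 2. It was 504 without SDHB KO SDHA low replicate 2, the deepest library, and 147 without replicate 1 of that group. No gene of the 132 changed its direction when any 1 sample was left out. TNFRSF21, PFDN5, MRPS26, ITPA, IGFBP4 and SRF passed in every one of the 18 alternatives in which they were fitted. Of the 40 genes that the rule for named genes took and that passed, 6 still passed without SDHB KO replicate 1, 14 without SDHB KO replicate 3 and 19 without SDHB KO SDHA low replicate 3.

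**Figure D1:**
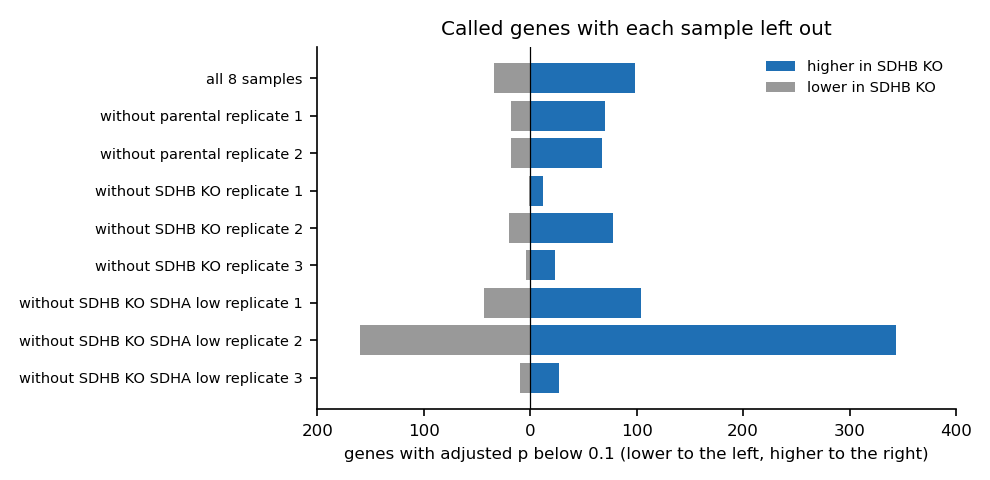
Number of genes with an edgeR adjusted p below 0.1 in SDHB KO against the other samples (x axis, lower genes to the left and higher genes to the right) with all 8 samples and with each sample left out (y axis). The bar without SDHB KO SDHA low replicate 2 is the longest, with 344 higher and 160 lower genes, and the bar without SDHB KO replicate 1 is the shortest, with 12 higher and 1 lower.

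The gene of smallest p was TNFRSF21 (ENSG00000146072, chr6:47231532-47309905), which encodes death receptor 6 of the tumour necrosis factor receptors, a protein with a death domain. Its level was 60.6 and 72.1 CPM in parental samples, 170.3, 189 and 193 in SDHB KO samples and 60.8, 86.2 and 51.8 in SDHB KO SDHA low samples. All 3 SDHB KO samples were high and the 5 others overlapped one another. The mean was 184 ± 12.1 CPM (SD, n = 3) in SDHB KO cells, 2.76-fold that of the 5 others (log2 fold change 1.46 ± 0.20 (SE), edgeR adjusted p = 0.00407). The RefSeq promoter of TNFRSF21, from 250 bases before to 50 after the start, lies at chr6:47309856-47310155 of GRCh38.p14 on the minus strand. It is shown because this gene led the comparison, with its GC box and its E-box (CACGTG) in capitals.
TNFRSF21: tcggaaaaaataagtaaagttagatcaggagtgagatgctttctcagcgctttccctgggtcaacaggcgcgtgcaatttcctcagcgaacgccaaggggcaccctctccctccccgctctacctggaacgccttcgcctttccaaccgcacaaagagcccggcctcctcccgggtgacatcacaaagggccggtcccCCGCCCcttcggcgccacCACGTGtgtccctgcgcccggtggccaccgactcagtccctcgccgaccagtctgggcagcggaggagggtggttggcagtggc

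PFDN5 (ENSG00000123349, chr12:53295291-53299452), a subunit of the prefoldin co-chaperone that hands unfolded actin and tubulin to the chaperonin, had 168 and 173 CPM in parental, 503, 315 and 405 in SDHB KO and 207, 187 and 155 in SDHB KO SDHA low samples. SDHB KO replicate 2 was the lowest of its group and still above the other 5 samples (log2 fold change 1.19 ± 0.19 (SE), edgeR adjusted p = 0.00811). None of the 8 motifs searched was found in its promoter. MRPS26 (chr20:3046052-3048250), a protein of the small mitochondrial ribosomal subunit, went from 97.2 and 95.7 CPM in parental and 88.2, 104 and 100.3 in SDHB KO SDHA low samples to 262, 183 and 219.6 in SDHB KO samples. Parental and knockdown samples overlapped and all SDHB KO samples were higher (log2 fold change 1.19 ± 0.19 (SE), edgeR adjusted p = 0.00811).

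ITPA (chr20:3208868-3223870) encodes the phosphatase that removes inosine triphosphate and related purine nucleotides from the nucleotide pool. It had 542, 496 and 497 CPM in SDHB KO samples, against 199 and 274 in parental and 277, 244 and 228 in SDHB KO SDHA low samples. The SDHB KO samples were close to each other and 2.09-fold higher (log2 fold change 1.07 ± 0.17 (SE), edgeR adjusted p = 0.00811). IGFBP4 (chr17:40443450-40457725), a secreted binding protein of insulin-like growth factors, had 742, 809.6 and 804 CPM in SDHB KO samples, 400.1 and 443 in parental and 331, 421 and 336 in SDHB KO SDHA low samples. All 5 others were lower and the other groups overlapped (log2 fold change 1.02 ± 0.17 (SE), edgeR adjusted p = 0.00811). PRMT1 (chr19:49675786-49689029), the main enzyme of asymmetric arginine dimethylation, had 716 and 757 CPM in parental, 3170.2, 1630.1 and 2094 in SDHB KO and 1283, 1064 and 766 in SDHB KO SDHA low samples. Here the knockdown samples lay between the other groups and the SDHB KO samples spread widely around 2298 ± 790.1 CPM (SD, n = 3) (log2 fold change 1.32 ± 0.22 (SE), edgeR adjusted p = 0.00811).

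**Figure D2:**
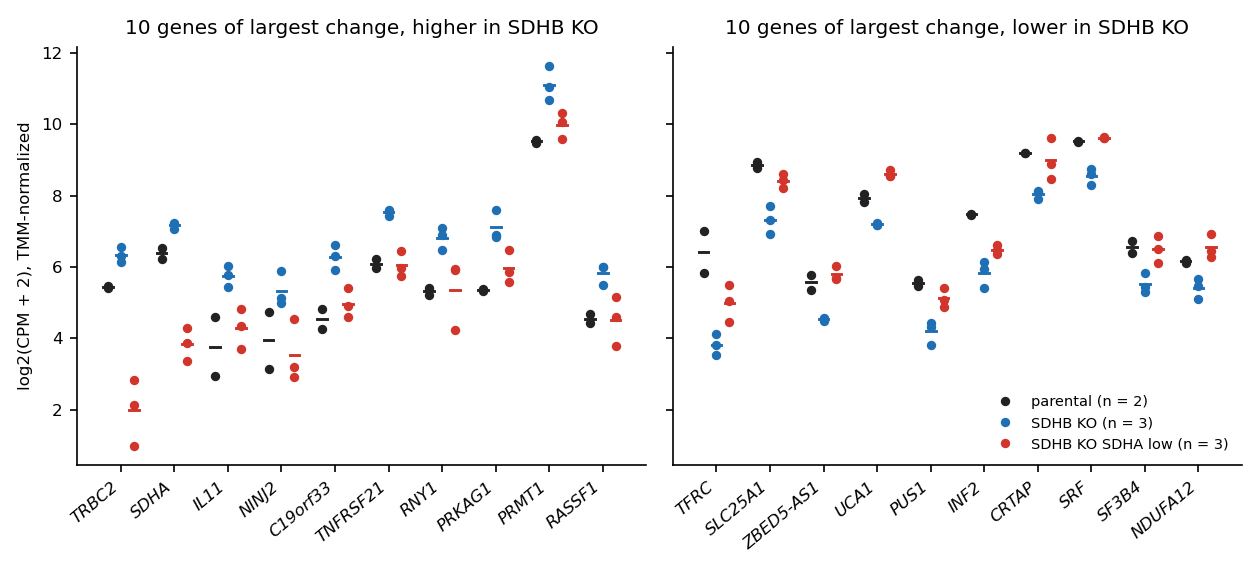
Values of each sample on the scale log2(CPM + 2) (points, y axis) and their group means (short lines) for the 10 genes of largest change in each direction that passed without overlap at a mean normalized count of at least 20 (x axis), with the higher genes on the left and the lower genes on the right. As the choice of genes without overlap fixes, the 3 SDHB KO samples (blue) lie on one side of the 2 parental (black) and 3 SDHB KO SDHA low (red) samples.

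Further genes higher in SDHB KO cells were named by the size of their change. IL11, an interleukin of the IL-6 family, was measured at 5.72 and 22.3 CPM in parental, 63.5, 52.7 and 41.6 in SDHB KO and 26.2, 18.4 and 11.02 in SDHB KO SDHA low samples. Although the parental pair was spread, every SDHB KO sample was higher (log2 fold change 1.64 ± 0.35 (SE), edgeR adjusted p = 0.0319). PRKAG1, a regulatory subunit of the energy sensor AMPK, had 40.01 and 38.04 CPM in parental, 193, 116 and 112 in SDHB KO and 87.04, 56.00 and 46.3 in SDHB KO SDHA low samples (log2 fold change 1.38 ± 0.26 (SE), edgeR adjusted p = 0.0141). The groups did not overlap, and all knockdown samples were above the parental pair. RASSF1, a Ras association domain gene, rose 2.45-fold (edgeR adjusted p = 0.0425). NINJ2, which encodes the adhesion protein ninjurin 2, had 29.7, 32.95 and 57.6 CPM in SDHB KO samples, close above the parental sample at 24.9 (edgeR adjusted p = 0.081). C19orf33 rose 2.86-fold, from a group mean of 21.7 ± 6.53 CPM (SD, n = 2) in parental and 30.2 ± 9.44 CPM (SD, n = 3) in SDHB KO SDHA low to 77.3 ± 18.9 CPM (SD, n = 3) in SDHB KO cells (edgeR adjusted p = 0.0117).

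Among the genes lower in SDHB KO cells, SRF (ENSG00000112658, chr6:43171269-43181506) had the smallest p. It encodes serum response factor, which binds CArG boxes in the promoters of immediate early and cytoskeletal genes. SRF was measured at 741 and 721 CPM in parental, 384, 424 and 310.3 in SDHB KO and 781, 776 and 790.4 in SDHB KO SDHA low samples. The 3 SDHB KO samples were low, and the 5 others lay within a narrow range. The mean of 373 ± 57.7 CPM (SD, n = 3) in SDHB KO cells was 2.04-fold lower (log2 fold change -1.03 ± 0.17 (SE), edgeR adjusted p = 0.00852). The SRF promoter, at chr6:43171019-43171318 on the plus strand of GRCh38.p14, is shown because it holds 2 CArG boxes, the motif of its own product, which start 30 and 10 bases before the transcription start. Of the promoters of tested genes, 1.2% held a CArG box. Capitals also mark 2 CCAAT boxes, a GC box (GGGCGG) and, on the opposite strand, a TATA motif (TATAAA) after the start.
SRF: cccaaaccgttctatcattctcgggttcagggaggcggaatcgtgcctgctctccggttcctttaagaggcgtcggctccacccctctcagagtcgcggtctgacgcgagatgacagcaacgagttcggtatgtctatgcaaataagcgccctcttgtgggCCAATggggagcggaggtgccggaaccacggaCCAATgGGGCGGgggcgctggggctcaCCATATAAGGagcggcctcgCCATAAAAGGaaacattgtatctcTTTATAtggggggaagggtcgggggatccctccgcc

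SLC25A1 (ENSG00000100075, chr22:19175581-19178739) encodes the carrier that exports citrate from mitochondria for fatty acid and sterol synthesis. It had 437 and 491 CPM in parental, 119, 208 and 159 in SDHB KO and 292, 343 and 390.2 in SDHB KO SDHA low samples. The 3 groups did not overlap, with SDHB KO samples lowest and parental samples highest (log2 fold change -1.26 ± 0.22 (SE), edgeR adjusted p = 0.0106). Its promoter, at chr22:19178687-19178986 on the minus strand, is shown for its 8 GC boxes and its CCAAT box, which are in capitals where they occur on either strand, and the last pair of GC boxes shares a base.
SLC25A1: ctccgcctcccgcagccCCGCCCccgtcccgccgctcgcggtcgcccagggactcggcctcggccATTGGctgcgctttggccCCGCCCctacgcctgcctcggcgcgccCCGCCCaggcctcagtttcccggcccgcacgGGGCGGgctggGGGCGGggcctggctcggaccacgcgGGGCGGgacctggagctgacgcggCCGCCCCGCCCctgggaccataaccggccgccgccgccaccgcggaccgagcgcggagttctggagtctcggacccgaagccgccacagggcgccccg

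UCA1, a long noncoding RNA gene, had 147, 144 and 144 CPM in SDHB KO samples, 223 and 261 in parental and 374, 376 and 420.0 in SDHB KO SDHA low samples (log2 fold change -1.19 ± 0.22 (SE), edgeR adjusted p = 0.0117). SDHB KO samples were lowest and the knockdown samples highest, with no overlap between any of the groups. CRTAP, a partner of the collagen prolyl 3-hydroxylase in the endoplasmic reticulum, had 239, 276 and 275 CPM in SDHB KO samples and 578 and 581 in parental samples. The knockdown samples were spread, at 351, 781 and 472 CPM, but all were above SDHB KO (log2 fold change -1.07 ± 0.22 (SE), edgeR adjusted p = 0.0272).

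TFRC, the transferrin receptor for iron uptake, had 126 and 55.1 CPM in parental, 12.2, 15.4 and 9.60 in SDHB KO and 42.9, 19.9 and 30.9 in SDHB KO SDHA low samples (log2 fold change -2.12 ± 0.50 (SE), edgeR adjusted p = 0.0455). SDHB KO samples were lowest, the knockdown samples were also below the parental pair, and the parental samples were far apart. FTH1, the heavy chain of the iron store ferritin, had 902, 1229 and 955 CPM in SDHB KO samples and 1497 to 2080 in the 5 others (log2 fold change -0.77 ± 0.18 (SE), edgeR adjusted p = 0.0422). PUS1, an enzyme that makes pseudouridine in RNA, was 2.23-fold lower and INF2, an actin-polymerizing formin, 2.18-fold lower in SDHB KO cells (edgeR adjusted p = 0.0949 and 0.0786). The antisense RNA gene ZBED5-AS1 was 2.39-fold lower (edgeR adjusted p = 0.0319), and since the strand setting of the counts is not given in the sources used here, its reads and those of ZBED5 cannot be told apart.

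To see how the other groups contributed, the 3 groups were fitted apart. The contrasts share the SDHB KO samples. Over all tested genes 5.54% passed between SDHB KO and parental cells, 1.51% between SDHB KO and knockdown cells and 0.954% between knockdown and parental cells. Of the 132 genes, 56 passed against each of the other groups, 44 higher and 12 lower, 37 passed against parental cells only, 30 against SDHB KO SDHA low cells only and 9 against neither. In 75 of the 132 genes the mean of SDHB KO SDHA low cells lay between those of parental and SDHB KO cells, and in 57 it lay on the far side of the parental mean. Genes chosen because SDHB KO cells lie apart leave hardly any other place for that mean, and the split was not tested. Knockdown and parental cells differed in 5 of the 132 genes, which are SDHA, TRBC2, TFRC, SMC4 and INF2. In TNFRSF21 the log2 fold change was 1.47 ± 0.27 (SE, edgeR adjusted p = 0.00818) against parental and 1.46 ± 0.23 (SE, edgeR adjusted p = 0.00313) against SDHB KO SDHA low cells. In SRF the same contrasts gave -0.97 ± 0.20 (SE, edgeR adjusted p = 0.0124) and -1.07 ± 0.18 (SE, edgeR adjusted p = 0.00476). For both genes the knockdown cells were within 0.10 of parental cells on the log2 scale.

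The 5 genes that differed between the other groups had their own orders. TRBC2 had 42.3 and 40.7 CPM in parental, 77.1, 69.2 and 92.8 in SDHB KO and 2.38, 5.16 and 0 in SDHB KO SDHA low samples, the same order as SDHA. Its log2 fold change was 0.94 ± 0.36 (SE, edgeR adjusted p = 0.167) against parental cells and 4.74 ± 0.45 (SE, edgeR adjusted p = 1.3e-06) against SDHB KO SDHA low cells, and the blood cell markers CD3E and PTPRC had no read in any sample. SMC4, whose product condenses chromosomes, had 58.3 and 26.2 CPM in parental, 2.70, 4.39 and 2.13 in SDHB KO and 10.7, 7.37 and 13.2 in SDHB KO SDHA low samples. INF2 had 178 and 173 CPM in parental samples, 68.9, 40.6 and 59.7 in SDHB KO samples and 87.04, 96.5 and 80.5 in SDHB KO SDHA low samples. In TFRC, SMC4 and INF2 the knockdown cells were closer to SDHB KO than to parental cells, and none of the 3 passed between SDHB KO and knockdown cells (edgeR adjusted p = 0.183, 0.252 and 0.253).

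**Figure D3:**
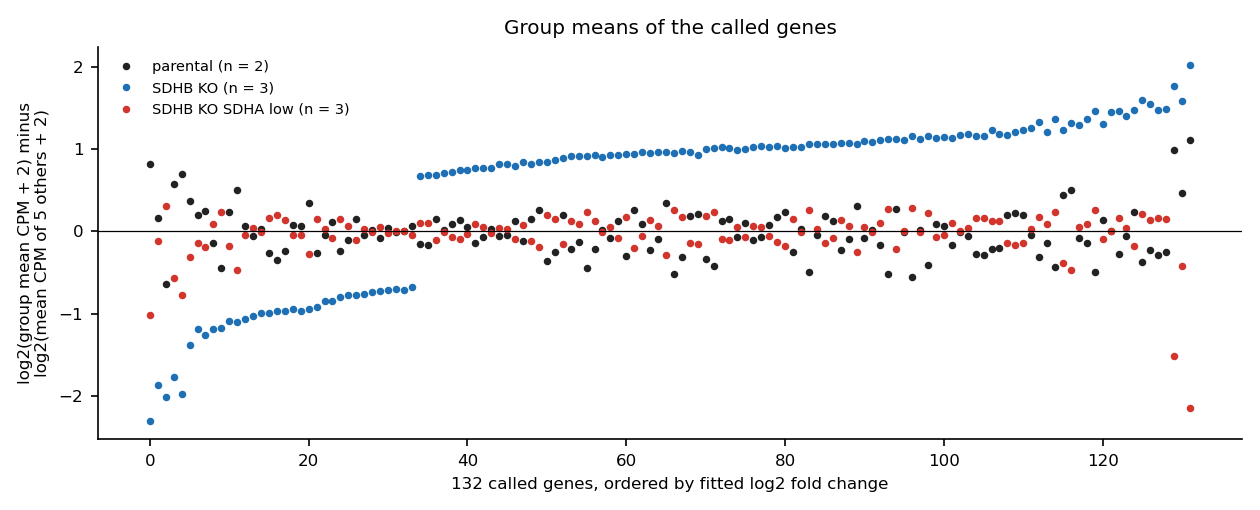
Group means of the 132 genes that passed, on the scale log2(CPM + 2) relative to the mean of the 5 others (y axis), ordered by fitted log2 fold change (x axis), for parental (black), SDHB KO (blue) and SDHB KO SDHA low (red) cells. The black and red points differed by the test in 5 genes, and wide gaps between them are seen at both ends, where SMC4, TRBC2 and SDHA lie.

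Pathways were described by 25 lists of 923 genes, of which 723 were tested and 24 passed, SDHA included (3.32%, against 1.75% of all tested genes). The lists were chosen with earlier results of these data known, so a higher share in them is no sign of enrichment, and it was not tested. In 11 lists no member passed, and no list held more than 3 that did. Beside the counts of single lists below, 1.3% of all tested genes rose and 0.45% fell. The medians of the lists lay between -0.39 and 0.24.

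Among mitochondrial metabolite carriers, 1 of 25 tested genes rose and 2 fell, with a list median of -0.16. Over all tested genes 1.3% rose and 0.45% fell. SLC25A11, the malate and 2-oxoglutarate carrier, had 288, 228 and 304 CPM in SDHB KO samples and 94.8 to 164 in the 5 others (log2 fold change 1.07 ± 0.20 (SE), edgeR adjusted p = 0.0117). SLC25A22, a mitochondrial glutamate carrier, fell from 28.6 and 36.7 CPM in parental and 23.8, 28.00 and 24.3 in SDHB KO SDHA low samples to 12.2, 9.89 and 11.7 in SDHB KO samples (log2 fold change -1.32 ± 0.35 (SE), edgeR adjusted p = 0.0786). The citrate carrier SLC25A1 was the other one that fell. Of 34 complex I subunit genes, NDUFA9 rose (log2 fold change 1.09, edgeR adjusted p = 0.0919) and NDUFA12 fell (-1.02, edgeR adjusted p = 0.0611), around a list median of 0.0018. NDUFA9 was spread within SDHB KO SDHA low cells, from 52.3 to 204 CPM, and the top one of these exceeded SDHB KO replicate 3 at 196. None of 23 TCA cycle and glutamine genes passed, with log2 fold changes from -0.53 for PCK2 to 0.65 for SUCLG1, and none of 23 genes of glycolysis and lactate handling did.

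The list of SRF targets and the actin cytoskeleton had 35 tested genes, a median of 0.02, and 3 genes that passed, beside 1.75% of all tested genes. TAGLN2, the actin-binding transgelin 2, rose from 359 and 386 CPM in parental and 670.1, 679 and 380.3 in SDHB KO SDHA low samples to 1376, 866 and 1069 in SDHB KO samples (log2 fold change 1.15 ± 0.23 (SE), edgeR adjusted p = 0.0175). CNN3, calponin 3, fell to 5.41, 10.98 and 12.8 CPM, from 41.1 and 34.1 in parental and 21.5, 28.00 and 18.7 in SDHB KO SDHA low samples (log2 fold change -1.52 ± 0.40 (SE), edgeR adjusted p = 0.0786). SRF itself was the third. The genes that passed moved in both directions, and 60% of the list lay above 0, against 47.9% of all tested genes. TAGLN had the largest positive value of the list, 1.94, and did not pass (edgeR adjusted p = 0.154).

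In the list of the ATF4 response with serine and one-carbon metabolism, 3 of 26 genes rose and none fell, with a median of -0.01. Of all tested genes 1.3% rose. ATF4, the transcription factor of the amino acid response, had 311, 233 and 322 CPM in SDHB KO samples, 158 and 197 in parental and 154, 186 and 162 in SDHB KO SDHA low samples (log2 fold change 0.75 ± 0.18 (SE), edgeR adjusted p = 0.0566). SHMT2, the mitochondrial serine hydroxymethyltransferase, had 361, 335 and 422 CPM in SDHB KO samples and 192 to 241 in the 5 others (log2 fold change 0.73 ± 0.17 (SE), edgeR adjusted p = 0.0455). EIF4EBP1, a repressor of cap-dependent translation, was 1.62-fold higher (edgeR adjusted p = 0.0905) with all 3 SDHB KO samples above the rest. With the groups fitted apart, ATF4, SHMT2 and EIF4EBP1 did not pass against parental cells (edgeR adjusted p = 0.103, 0.112 and 0.206). They passed against SDHB KO SDHA low cells (edgeR adjusted p = 0.0748, 0.0462 and 0.0687). In the comparison of 3 against 5 they failed in 6, 5 and 10 of 18 alternatives. DDIT3 was at 1.47 without passing (edgeR adjusted p = 0.12). SHMT2 and EIF4EBP1 lie in stretches of chromosomes 12 and 8, described below, where many neighbouring genes were also higher. The median log2 fold change there was 0.27 and 0.31, with 78.1% and 68% of tested genes above 0. Whether these genes differ from their neighbours was not tested.

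For DNA synthesis, LIG1, the replicative DNA ligase, was the 1 gene of 42 in the replication list that passed. It had 48.01 and 39.3 CPM in parental, 200.1, 84.6 and 112 in SDHB KO and 91.8, 81.05 and 51.8 in SDHB KO SDHA low samples (log2 fold change 1.06 ± 0.29 (SE), edgeR adjusted p = 0.0905). SDHB KO replicate 2 overlapped the knockdown samples. None of 21 genes of pyrimidine and deoxynucleotide supply passed, with a list median of -0.12, and the de novo pathway genes CAD, DHODH and UMPS had log2 fold changes of -0.01, 0.02 and -0.15. None of 28 genes of G2/M and mitosis passed either, down to -2.39 for CENPF (edgeR adjusted p = 0.171).

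In the list of NRF2, glutathione and antioxidant genes GSTP1, a glutathione S-transferase, rose and FTH1 fell among 31 tested genes. GSTP1 had 1037, 565 and 798 CPM in SDHB KO samples and 286 to 486 in the 5 others (log2 fold change 1.09 ± 0.20 (SE), edgeR adjusted p = 0.0117). SCD, the stearoyl-CoA desaturase, had a log2 fold change of -1.05 and did not pass (edgeR adjusted p = 0.119). CRTAP was the 1 gene of 27 that passed in the list of 2-oxoglutarate dioxygenases and their partners. IL11 was the 1 of 14 genes of NF-kB and inflammatory cytokines, and TNFRSF21 the 1 of 9 tumour necrosis factor receptors. The lists of extracellular matrix, interferon response, p53 targets, proteasome, lysosome, RNA decay and endoplasmic reticulum chaperones had no gene that passed.

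Of 77 cytosolic ribosomal protein genes, RPS10 and RPL27A rose, beside 1.3% of all tested genes, while the list median was -0.04. RPS10 had 525 and 552 CPM in parental, 2254, 1226 and 1807 in SDHB KO and 1196, 1071 and 613 in SDHB KO SDHA low samples (log2 fold change 1.15 ± 0.25 (SE), edgeR adjusted p = 0.0319). The knockdown samples lay above the parental pair, SDHB KO replicate 2 was only slightly higher than the top knockdown sample, and the values of RPL27A overlapped between these groups (edgeR adjusted p = 0.0425). Ribosomal protein genes, TAGLN2, GSTP1 and FTH1 have near-identical pseudogene copies, so their counts are uncertain where reads map to several places. Reads mapping to several places made up 14.5 to 16.1% of all reads in SDHB KO samples, 9.72 to 12.3% in SDHB KO SDHA low and 10.2 to 10.9% in parental samples. Their part in these results was not tested. Among 48 splicing factor genes the core protein SNRPB rose (log2 fold change 0.82) and the U2 factor SF3B4 fell (-1.03), with edgeR adjusted p of 0.0319 and 0.0481.

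The position of the tested genes along the genome was examined next. Tested genes were grouped in bins of 10 Mb, and 217 bins held at least 10 genes. The median log2 fold change was 0.25 or more in 13 of them, which joined into 10 stretches, and the quartiles of all bin medians were -0.15 and 0.04. These stretches were chosen after their values were seen, so they are described and not tested. Choosing them by a high median favours genes that rose and SDHB KO samples that lie highest, so neither is further support. Together they held 436 tested genes, of which 38 rose (8.72%) and none fell, with a median of 0.41. The count of 38 depended on single libraries as the whole count did. It was 7 without SDHB KO replicate 1, 9 without SDHB KO replicate 3, 14 without SDHB KO SDHA low replicate 3 and 73 without SDHB KO SDHA low replicate 2. In the other 7114 genes 60 rose (0.843%) and 34 fell (0.478%), with a median of -0.04.

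**Figure D4:**
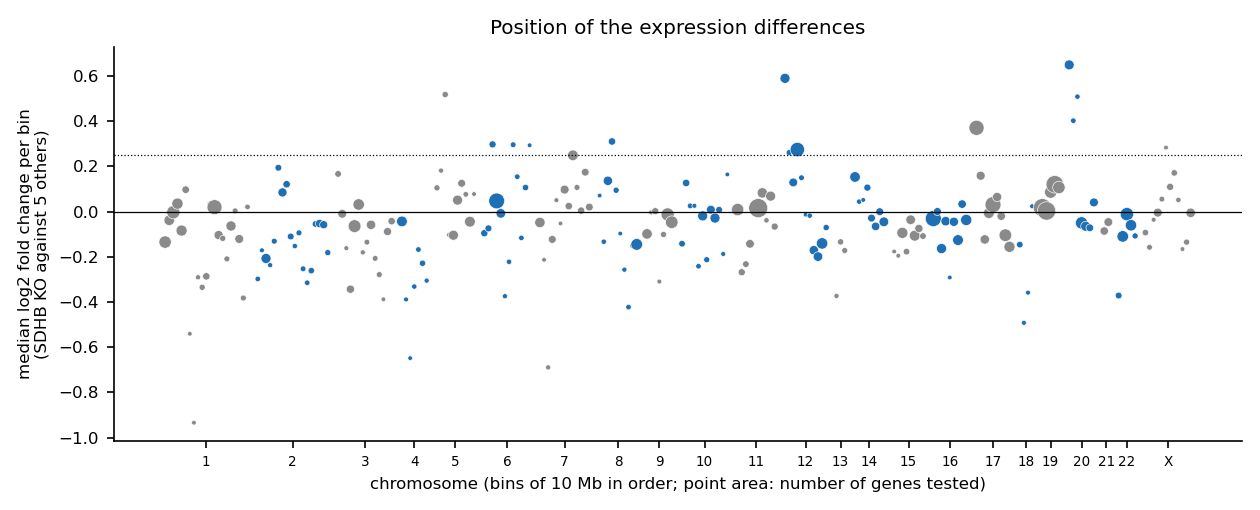
Median log2 fold change of SDHB KO against the 5 others (y axis) in bins of 10 Mb with at least 10 tested genes, in order along the chromosomes (x axis), with point area by number of genes and colour alternating by chromosome. The dotted line at 0.25 marks the lower limit of the stretches described, and the highest points are on chromosomes 20 and 12.

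The highest median was in the first 30 Mb of chromosome 20, where 11 of 72 genes rose (15.3%), 88.9% had a log2 fold change above 0, and 37.5% had all 3 SDHB KO samples above the 5 others, against 5.06% of all tested genes. The 11 genes are MRPS26, ITPA, CST3, NSFL1C, SNRPB, PCED1A, RBCK1, MAVS, ABHD12, SOX12 and FERMT1. On the scale log2(CPM + 2), relative to each gene's mean over the 8 samples, the median of these 72 genes was 0.09 and 0.13 in parental samples, 0.35, 0.35 and 0.49 in SDHB KO samples and -0.46, -0.41 and -0.38 in SDHB KO SDHA low samples. SDHB KO was thus highest, parental in between and SDHB KO SDHA low lowest, with no overlap. The stretch was chosen for its high median, which largely fixes the high place of SDHB KO and the shares above. CST3, the secreted protease inhibitor cystatin C, had 225 and 240.0 CPM in parental, 400.2, 436 and 433 in SDHB KO and 166, 219.6 and 177 in SDHB KO SDHA low samples. MAVS, the adaptor of antiviral RNA sensors, had 131 and 185 CPM in parental samples, 237, 224 and 308 in SDHB KO samples and 126, 118 and 127 in SDHB KO SDHA low samples. In both genes the SDHB KO samples were all above the 5 others.

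In the first 20 Mb of chromosome 12, 7 of 62 genes rose (11.3%), namely PTMS, YBX3, TEAD4, GPRC5A, NINJ2, ADIPOR2 and NDUFA9, and 87.1% were above 0. The median was -0.09 and -0.01 in parental, 0.36, 0.30 and 0.29 in SDHB KO and -0.25, -0.29 and -0.25 in SDHB KO SDHA low samples. In the first 10 Mb of chromosome 17, 12 of 105 genes rose (11.4%), among them FXR2, an RNA-binding relative of FMR1, P2RX5, an ATP-gated channel, and SLC25A11. There the median was -0.06 and 0.03 in parental, 0.29, 0.15 and 0.27 in SDHB KO and -0.28, -0.17 and -0.23 in SDHB KO SDHA low samples. A further stretch of chromosome 12, from 50 to 60 Mb, held 5 genes that rose of 96 (5.21%), PFDN5, STAT6, ORMDL2, CDK4 and SHMT2, with a median log2 fold change of 0.27. The same order of groups was seen in these 4 stretches, with SDHB KO above parental and parental above SDHB KO SDHA low samples and no overlap. The other six stretches held 10 to 25 tested genes each, with 1 gene that rose (RAD1, EIF4EBP1 and STARD8) or none, and none of them had this order without overlap. In the bin from 30 to 40 Mb of chromosome 8 all SDHB KO samples were above the 5 others, but parental and SDHB KO SDHA low samples overlapped. In the rest of them the SDHB KO samples overlapped with at least 1 of the other samples. From 30 to 40 Mb of chromosome 5, for example, parental replicate 1 was at 0.38 and SDHB KO replicate 3 at 0.10, and from 20 to 30 Mb of chromosome 6 SDHB KO SDHA low replicate 1, at 0.48, was above all SDHB KO samples.

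**Figure D5:**
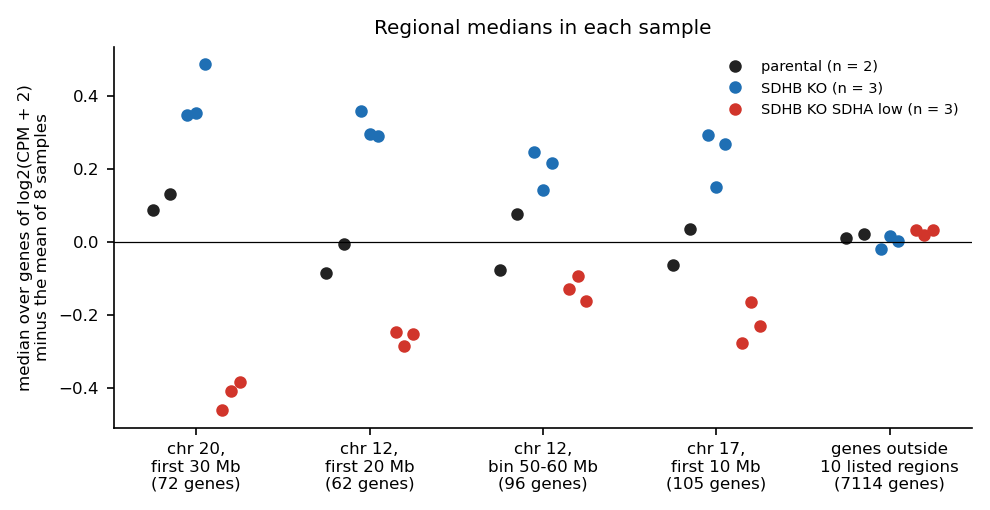
Median over genes of log2(CPM + 2) minus the gene's mean over 8 samples (y axis), for each sample (points) in 4 stretches with higher medians in SDHB KO and in the 7114 genes outside the 10 stretches (x axis). In each of the 4 stretches the SDHB KO samples (blue) are above the parental (black) and these above the SDHB KO SDHA low samples (red), while outside the stretches all samples lie between -0.02 and 0.03.

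P2RX5 is an example of a gene in such a stretch with little difference between the other groups. It had 135, 147 and 142 CPM in SDHB KO samples, 73.2 and 65.6 in parental and 71.5, 61.9 and 69.4 in SDHB KO SDHA low samples (log2 fold change 1.05 ± 0.19 (SE), edgeR adjusted p = 0.0117). For the 72 genes of chromosome 20 the median log2 fold change was 0.30 against parental and 0.78 against SDHB KO SDHA low cells. For the 62 genes of chromosome 12 these were 0.44 and 0.63, and for the 105 genes of chromosome 17 they were 0.24 and 0.45. In all 3 stretches the median was larger against SDHB KO SDHA low than against parental cells, and the difference between these medians was not tested. The opposite was seen from 20 to 30 Mb of chromosome 6 (0.28 against parental, 0.18 against SDHB KO SDHA low). It was also seen from 60 to 70 Mb of chromosome X (0.36 and 0.16), and not in the rest of the stretches. Of the 5 others, 3 are SDHB KO SDHA low samples, so the choice of stretches favours the larger median against them.

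Beyond protein-coding genes, 2 genes for Y RNAs rose. The kit reads the 3' end of polyadenylated transcripts, and how far its counts follow the level of such short RNAs was not tested. RNY1, whose short RNA binds the Ro60 protein, had 35.4 and 40.7 CPM in parental, 86.5, 134 and 116 in SDHB KO and 58.4, 16.9 and 59.5 in SDHB KO SDHA low samples (log2 fold change 1.44 ± 0.30 (SE), edgeR adjusted p = 0.0272). RNY4 had 25.7, 27.5 and 17.1 CPM in SDHB KO samples and 1.47 to 11.4 in the 5 others (edgeR adjusted p = 0.061), and was named after its values were seen. They were 2 of 7 tested genes of a mixed annotation class, miscellaneous RNA, beside 1.3% of all tested genes that rose. Both lie on chromosome 7, with RNY4 from base 148963315 and RNY1 from base 148987136. RNU4ATAC, a small nuclear RNA gene, also rose (log2 fold change 1.62, edgeR adjusted p = 0.0779). It had 419, 275 and 117 CPM in SDHB KO samples and overlapped the 5 others, at 18.4 to 155. The 11 small nucleolar RNA genes had a median log2 fold change of 0.43 with none that passed. Processed pseudogenes had a median of 0.33 over 81 genes, 1 of which passed. Reads that map to several places were more frequent in SDHB KO samples, as given above, and their part in these values was not tested. Of 213 long noncoding RNA genes, LINC00324 rose and UCA1 and ZBED5-AS1 fell.

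The promoters of the genes that passed were searched on both strands for 8 motifs, with a RefSeq promoter for 6081 tested genes, 73 of the higher and 28 of the lower ones. The AP-1 motif TGANTCA was in 11.0% of the promoters of higher genes, 3.57% of those of lower genes and 4.37% of all. The TEAD motif GGAATG was in 16.4%, 7.14% and 10.6%, and the CArG box in 4.11%, 3.57% and 1.2%, the last being 3, 1 and 73 promoters. GC boxes (GGGCGG) were in 82.2%, 75% and 74.2%, CCAAT boxes (CCAAT) in 31.5%, 35.7% and 37.6%, and TATAAA in 5.48%, 10.7% and 4.82%. The E-box CACGTG was in 9.59%, 3.57% and 10.9%, and the cyclic AMP response element TGACGTCA in 1.37%, 3.57% and 3.68%. A match describes letters in the window and was not compared by a test.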

How the data were processed

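RNA of 8 MDA231 samples was sequenced with a kit that reads the 3' end of polyadenylated transcripts. Per the paper's methods and the submitters' processing notes, the authors trimmed with Trimmomatic, took out reads of ribosomal and mitochondrial origin with Sortmerna, and used STAR 2.5.2b to align the rest to GRCh38 (annotation release 87) and count them. The raw counts per gene that the authors deposited entered all tests. The strand column used is not given in the sources used here, and reads that map to several places are not in the counts. The authors also deposited normalized counts, a signal made by dividing the counts by a size factor per sample, which served as a check here. In the normalized counts the first and the third SDHB KO replicate have each other's values, and the numbers of the raw counts were used.

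Groups were taken from the modification in the labels. Tests were run in R 4.3.3. Counts were normalized by the trimmed mean of M values over all reads counted on genes, and the 3 SDHB KO samples were tested against the 5 others with the quasi-likelihood test of edgeR 4.0.16, with 6 residual degrees of freedom. The differences between parental and SDHB KO SDHA low cells count as spread in this fit, whose biological coefficient of variation was 23.9%. A second fit with 3 groups (5 residual degrees of freedom, 21.5%) gave the contrasts with each group. Benjamini-Hochberg adjustment of p-values covered all 7550 genes, and genes below 0.1 passed. Standard errors (SE) were derived from the log2 fold change and the F statistic, as their ratio with the root of F. Values on the scale log2(CPM + 2) used a prior of 2.

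The genes named were the 8 genes of complex II and its assembly, the 10 of largest change in each direction that passed with a mean normalized count of at least 20 and no overlap, the 5 of smallest p in each direction, and up to 4 of each list. Some genes that this rule takes are not reported here. Other genes, and the stretches of chromosomes, were chosen after their values were seen. The comparison, members and lists were chosen with earlier results of these data known. GENCODE release 44 on GRCh38 gave positions and GC content and matched 56948 of 58051 identifiers, and promoters came from RefSeq on GRCh38.p14. Intervals and floors from counts cover counting error only.

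Samples with the same replicate number showed no common deviation from their group means (correlations from -0.27 to 0.09 over 7 pairs), and the numbers were not taken as pairs. Deviations within such small groups are tied to each other, so these correlations are not independent and cannot settle whether the numbers mark pairs. The alternatives were DESeq2 1.42.0, its size factors, other filters, an adjusted p of 0.05, other contrasts, the replicate number as a block, an offset for GC content and each sample left out. On simulated data for SDHB KO against the 5 others, with 200 of 7550 genes changed, 166 were recovered at a log2 fold change of 1 and 200 at 2, with 5.14% and 9.91% of calls false. The changed genes were drawn only from well-counted genes, above the median mean normalized count of 28.4 over all tested genes. The simulated parental and SDHB KO SDHA low samples shared the same mean for each gene. The recovery therefore does not hold for genes of low count or for groups that differ.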

Additional observations from a re-analysis of the deposited data

Results flagged for a closer look

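Reads that map to several places are outside the counts that were tested. They took 15.1% ± 0.872 (SD, n = 3) of all reads in SDHB KO samples, 11.1% ± 1.29 (SD, n = 3) in SDHB KO SDHA low samples and 10.5% ± 0.529 (SD, n = 2) in parental samples. The lowest SDHB KO sample, at 14.5%, was above the highest of the 5 others, at 12.3%. This share was looked at because it is a signal outside the main measurement that is higher than in parental cells, and it was not tested.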

How the results depend on the processing

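Of the 132 genes none changed direction under any alternative, and the median log2 fold change of the 436 genes in the chromosome stretches lay between 0.37 and 0.43, while the number of them that rose, 38, was 7 to 73 when single samples were left out and 16 with the replicate number as a block. The counts moved more. DESeq2 gave 225 genes (83 lower), 189 of them without overlap and 43 in lists. No filter gave 219 (73 lower, 40 in lists). An adjusted p of 0.05 gave 71 (59 higher, 12 lower, 69 without overlap). The contrast of 3 groups with equal weight per group gave 305 (211 higher, 94 lower, 210 without overlap, 54 in lists), and with equal weight per sample 274 (191, 83, 203 and 50). Passing against both other groups left 56 (44 higher, 12 lower, all 56 without overlap, 14 in lists). The replicate number as a block left 44 (36 higher, 8 lower, 42 without overlap, 10 in lists), where it is not known whether the numbers mark pairs. Leaving out each sample gave 13 to 504 genes, 12 to 344 higher, 1 to 160 lower, 13 to 408 without overlap and 2 to 85 in lists, with the lowest values without SDHB KO replicate 1 and the highest without SDHB KO SDHA low replicate 2. The other alternatives, DESeq2 size factors, 2 other filters and the GC offset, gave 131 to 148 genes, and the GC offset gave 98 higher and 46 lower. The cause of these changes was not tested.

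Of the same 40 genes, 38 still passed with DESeq2, 38 with the GC offset and 20 with the replicate number as a block. The log2 fold change of SDHAF2, 0.18 and not past the threshold, was -0.064 without SDHB KO replicate 3, and lay between -0.064 and 0.35 when single samples were left out. With 3 counts at 2.10 to 3.88 CPM, genes such as SDHB and SDHD could not be tested.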

Other observations

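Bins with lower values in SDHB KO cells were more numerous than those with higher values. The median log2 fold change was -0.25 or less in 28 of the 217 bins and 0.25 or more in 13. Over the tested genes, log2 fold change correlated weakly with the GC content of the last 300 transcript bases (Spearman 0.13). With the GC offset the correlation was 0.015. For the genes of the 10 stretches the median log2 fold change was 0.410 with the GC offset and 0.405 in the main fit, with 38 genes that rose in each. The part of GC content in the medians of the other bins was not tested. In 11 bins the 3 SDHB KO samples were all above the 5 others in their median, and 6 of these were among the 13. By whole chromosome the share of tested genes that rose was 4.42% on chromosome 20, 3.19% on chromosome 12, 2.89% on chromosome 17 and 2.38% on chromosome 7, against 1.3% over all tested genes. Chromosomes 4, 13, 18 and 21 had no gene that rose, with 205, 73, 85 and 75 tested genes. The largest shares that fell were on chromosome 22, at 1.67%, and on chromosome 18, at 1.18%, which is 1 gene.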
